A study of Chlamydomonas reinhardtii with 9 samples.

Results

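The histone genes of the green alga Chlamydomonas reinhardtii were examined in 9 polyA RNA libraries. The family was taken by gene symbol, as every gene model named HTA (H2A), HTB (H2B), HTR (H3), HFO (H4), HON (linker histone H1), HAV or HBV (variants) followed by a digit. This gave 125 of 17609 gene models, with 27 HTA, 26 HTB, 34 HTR, 32 HFO, 3 HON, 2 HAV and 1 HBV genes. The libraries came from 3 strains with 3 separate cultures each. Strain B6 has the wild-type CEHC1 gene, strain B6-F carries the cehc1-1 mutation, and strain B6-F_resc is that mutant after transformation with a wild-type CEHC1 gene. They are called the wild type, the mutant and the rescued strain. All cultures were unicellular algal cells grown with aeration in acetate-containing TAP medium with light for 14 h and darkness for 10 h, and they were collected 6 h into the light. Each strain is 1 stock, the labels do not describe the lesion, and the place of the added gene is not given.

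Histones package DNA. A nucleosome holds H2A, H2B, H3 and H4, and H1 binds the DNA between nucleosomes. In most eukaryotes the bulk of histone mRNA is made in S phase, when DNA is copied, while variant histones are made through the cell cycle and exchanged into chromatin outside replication. Chlamydomonas in a light and dark cycle grows in the light and divides around the onset of darkness. In animals the mRNAs of replication histones end in a stem-loop without a poly(A) tail, and Chlamydomonas core histone genes have been described with a similar palindrome behind the coding region. A histone gene whose mRNA was not made and one whose mRNA had no tail cannot be told apart in polyA libraries. Nor can fewer cells in S phase be told apart from less RNA per cell.

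Levels are the authors' deposited FPKM, which divide fragment numbers by the length of the transcript and the size of the library. Read numbers were not stated, and the steps between the lowest FPKM values did not settle the relative depth of the strains, since the most frequent step held only 6.33% to 23.0% of low genes. The FPKM of all genes summed to 970073 to 1108532 in wild-type cultures, 592929 to 645234 in mutant cultures and 888153 to 1002223 in rescued cultures. The mutant libraries listed 1904 to 2005 genes at 0, against 2426 to 2547 and 2383 to 2521 in the other strains. CEHC1 itself was at 7.07 to 9.77 FPKM in wild-type cultures, 16.2 to 18.0 in mutant cultures and 25.4 to 27.9 in rescued cultures, so its transcript does not check the mutant label.

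Most of the family was listed at 0. Of the 125 genes, 83 (66.4%) were at 0 in all 9 libraries, whereas 7.90% of all gene models and 0.786% of the 4201 other gene models with a symbol were. The core classes differed in this. The genes at 0 throughout were 24 of 27 HTA, 24 of 32 HFO, 19 of 34 HTR and 14 of 26 HTB. A further 28 genes had a mean above 0 but under 0.1 FPKM, and none of these exceeded 0.284 FPKM in any library. Another 9 had means of 0.1 to 1 FPKM. The remaining 5 reached a mean of 1 FPKM and passed the filter for the test. They were HAV2, HTB21, HTB22, HTA21 and HBV1, with HBV1 just inside at 1.01 FPKM and HTA22, HTR25 and HFO25 just outside at 0.887, 0.841 and 0.755. Histones are needed by every dividing cell, so a value of 0 is given here only as listed. Copies of 1 histone class are often nearly identical, so reads can match several of them, and no source used here says how such reads were assigned.

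Signal was uneven over the positions of the genes. The 4 core classes of Chlamydomonas are arranged in clusters, and on the reference gene order 98 members lay in 23 runs of 3 to 8 directly adjacent histone genes, 19 of them a set of 1 HTA, 1 HTB, 1 HTR and 1 HFO gene. In those runs 2 of 97 core genes had a mean of at least 0.1 FPKM, and 71 were at 0 in all libraries. A further 20 core genes lay in 10 pairs with no other histone gene directly beside them, either HTA with HTB or HTR with HFO. Such a pair could still lie close to other histone genes, as those on chromosome 6 did. Of these 20, 8 had a mean of at least 0.1 FPKM and 10 were at 0 in all libraries. The 8 made up 4 whole pairs, HTB21 with HTA21 and HTA22 with HTB22 on chromosome 13, and HTR24 with HFO24 and HFO25 with HTR25 on chromosome 16. The other 6 pairs, on chromosomes 6, 12, 16 and 17, were near 0. Of the remaining 6 members with a mean of at least 0.1 FPKM, HTB9 and HTB18 lay in runs of 4, and HAV2, HBV1, HTR2A and HTR2B had no histone neighbour. Among the 57 members on chromosome 6 the highest mean was 0.127 FPKM, and among the 30 on chromosome 17 it was 0.0778.

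**Figure D1:**
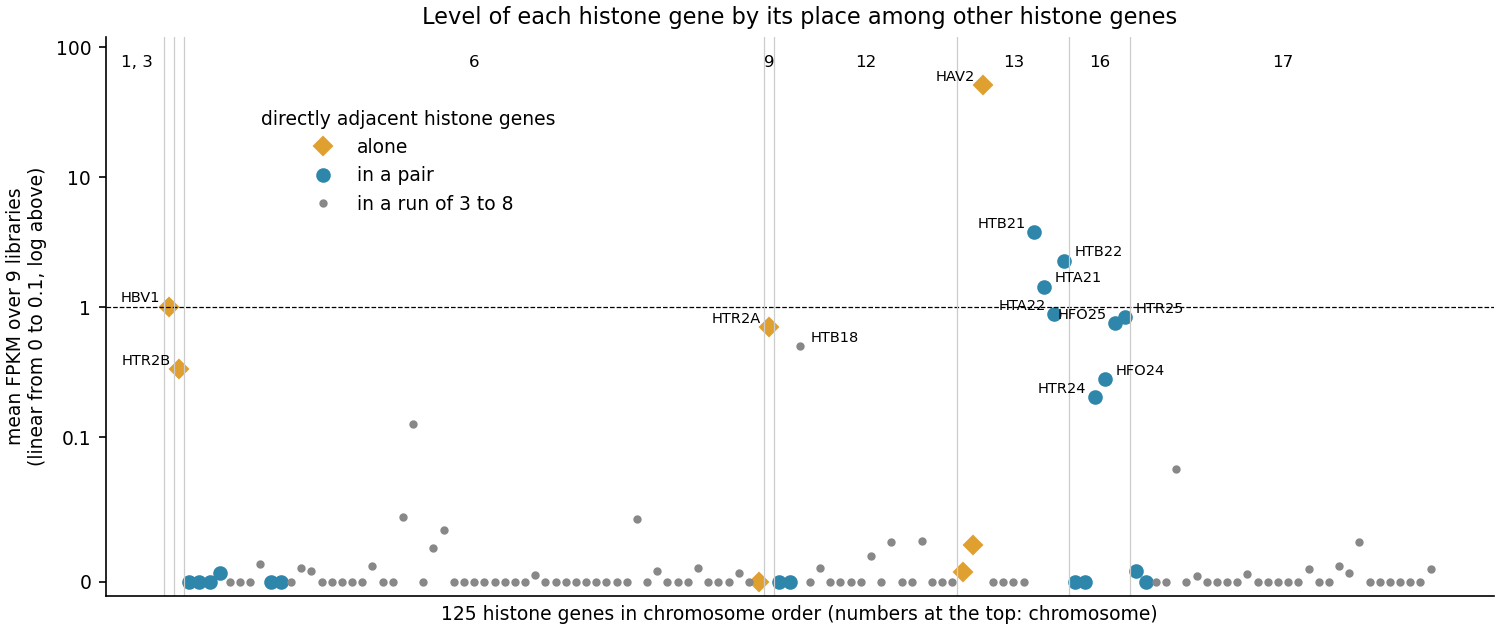
Mean FPKM over the 9 libraries (linear from 0 to 0.1, logarithmic above) for each of the 125 histone genes in chromosome order. Colour and shape mark genes with no directly adjacent histone gene, genes in a pair, and genes in a run of 3 to 8, and the dashed line is 1 FPKM. HAV2 stands alone at 50.9 FPKM, the 4 pairs with signal on chromosomes 13 and 16 lie between 0.205 and 3.77, and in the longer runs all core genes but HTB18 and HTB9 lie under 0.1.

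Few members exceeded 1 FPKM in any library. The share was 4.80%, 5.60% and 6.40% of the 125 genes in wild-type libraries, 3.20%, 4.0% and 2.40% in mutant cultures, and 4.0%, 3.20% and 4.0% in rescued cultures. These are 6, 7 and 8 genes against 4, 5 and 3 and 5, 4 and 5. The wild-type libraries were higher than those of both other strains with no overlap, by 1 gene at the nearest. All gene models went the other way between mutant and wild type, with 66.3% to 67.7% above 1 FPKM in mutant cultures, 59.5% to 61.1% in wild-type cultures and 61.6% to 64.0% in rescued cultures. HAV2, HTB21 and HTB22 were above 1 FPKM in all 9 libraries. HTR25 was above it in all 3 wild-type libraries, in no mutant library and in 1 rescued library, and HTA22 and HFO25 were above it in 2 wild-type libraries each and nowhere else.

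The summed FPKM of the family was 75.9, 70.6 and 85.6 in wild-type cultures, 64.0, 77.3 and 54.1 in mutant cultures and 48.7, 50.8 and 53.9 in rescued cultures. HAV2 alone held 75.0% to 82.4% of it. The 4 core classes, leaving out HTR2A and HTR2B for a reason given below, summed to 17.1, 12.8 and 16.4 FPKM in wild-type cultures, 11.1, 10.5 and 9.15 in mutant cultures and 7.72, 9.48 and 9.71 in rescued cultures. On this scale the wild type was above both other strains in every library. With every library scaled to a summed FPKM of 1000000, the core classes summed to 13.2 to 16.2 in wild-type cultures, 14.2 to 18.0 in mutant cultures and 8.69 to 9.68 in rescued cultures. On that scale mutant and wild type overlapped and every rescued library lay below all others, whereas on the FPKM scale mutant and rescued cultures overlapped. The sum of the whole family, scaled in the same way, was 72.0 to 77.3 in wild-type cultures, 83.9 to 130 in mutant cultures and 51.0 to 54.8 in rescued cultures. Every mutant library was then above every wild-type library, which was not so in FPKM.

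**Figure D2:**
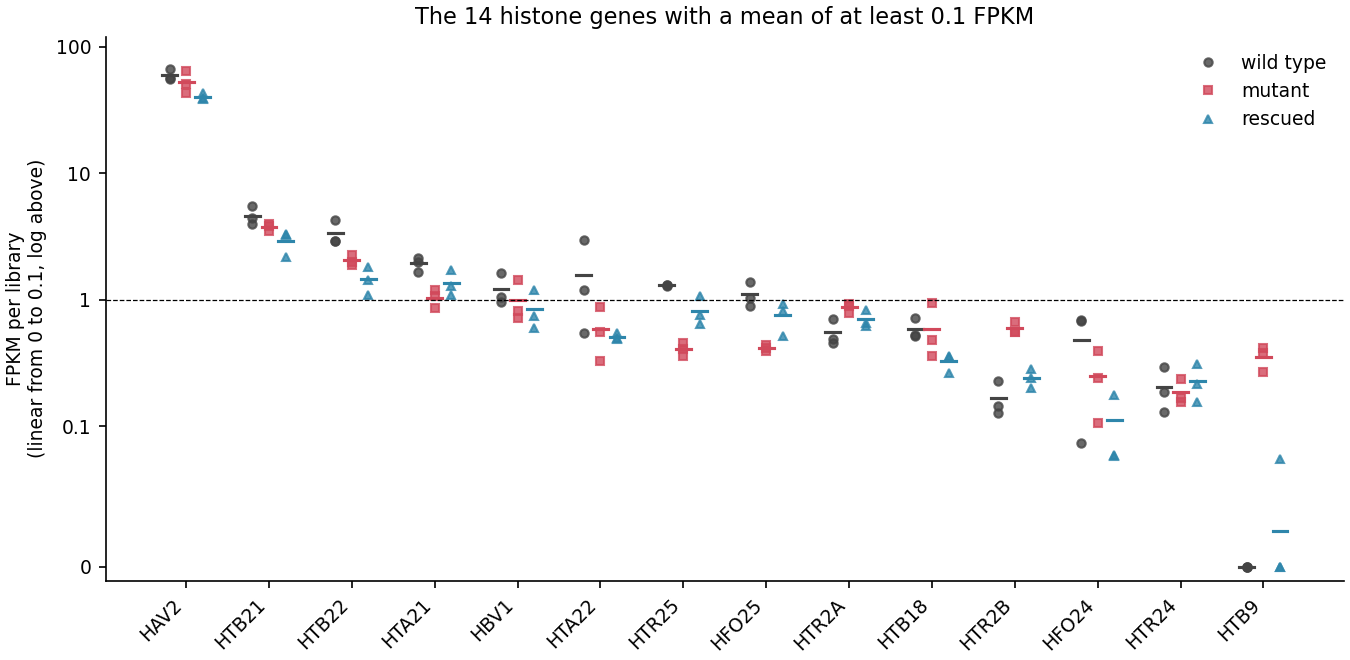
FPKM in each library (linear from 0 to 0.1, logarithmic above) of the 14 histone genes that averaged 0.1 FPKM or more. Points are the 3 cultures of a strain, short bars their mean, and the dashed line is 1 FPKM. HTR25 and HFO25 have all mutant libraries below those of the other strains, and HTB9 is at 0 in all wild-type libraries. Over all genes with any signal, 32.3% have all mutant libraries below the wild type.

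HAV2 (Cre13.g567700_4532), an H2A variant gene by its symbol, had the highest level of the family. It was at 57.0, 55.9 and 67.0 FPKM in wild-type cultures, 50.6, 63.7 and 42.9 in mutant cultures and 38.8, 39.5 and 42.8 in rescued cultures. The mutant range overlapped that of the wild type, and every rescued library lay below every library of the other strains. With every library scaled to a summed FPKM of 1000000, HAV2 was at 54.0 to 60.4 in wild-type cultures, 66.5 to 108 in mutant cultures and 39.7 to 43.7 in rescued cultures. The direction between mutant and wild type thus depended on the scaling, with all mutant libraries above all wild-type libraries on the second scale. Rescued strain minus wild type was -0.56 on the log2(FPKM + 1) scale (SE 0.13, adjusted p 0.0074, limma), below the minimum difference of 1 for a call, and quantile normalization ended that result (-0.37, adjusted p 0.065). Rescued strain minus mutant was -0.35 (SE 0.13, adjusted p 0.038), but that result was lost on leaving out mutant replicate 2 (-0.20, adjusted p 0.14), mutant replicate 1 or any of the rescued libraries. Mutant minus wild type was -0.20 (SE 0.13, adjusted p 0.185, limma). It was -0.35 (adjusted p 0.018) without mutant replicate 2, and 0.31 (adjusted p 0.082) after quantile normalization.

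HBV1 (Cre01.g062172_4532), an H2B variant gene by its symbol, was at 0.950, 1.04 and 1.63 FPKM in wild-type cultures, 0.814, 1.43 and 0.711 in mutant cultures and 1.20, 0.743 and 0.597 in rescued cultures. All 3 ranges overlapped, and its adjusted p-values were 0.429, 0.629 and 0.248 (limma) for mutant against wild type, rescued strain against mutant and rescued strain against wild type. HAV3 was listed at 0 in all 9 libraries.

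The H2A and H2B genes with the highest levels were the pairs on chromosome 13. HTB21 (Cre13.g590750_4532) was at 5.51, 4.44 and 3.94 FPKM in wild-type cultures, 4.0, 3.81 and 3.48 in mutant cultures and 2.16, 3.25 and 3.30 in rescued cultures. The rescued libraries lay below all others, with a difference of -0.53 from the wild type (SE 0.14, adjusted p 0.011, limma). The mutant differed from the wild type by -0.23 (adjusted p 0.152) and rescued strain minus mutant was -0.30 (adjusted p 0.082).

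Its neighbour HTA21 (Cre13.g590800_4532) was at 2.00, 1.65 and 2.15 FPKM in wild-type cultures, 1.06, 1.18 and 0.866 in mutant cultures and 1.08, 1.73 and 1.27 in rescued cultures. Every mutant library lay below every wild-type library, with a difference of -0.53 (SE 0.12, adjusted p 0.0023, limma). The rescued strain lay between them, with 0.21 for rescued strain minus mutant (adjusted p 0.151, limma) and -0.32 for rescued strain minus wild type. The latter difference (-0.32, adjusted p 0.049, limma) missed the threshold with a pseudocount of 0.1, with no minimum, with median ratios and on leaving out most single libraries, at adjusted p-values from 0.055 to 0.155.

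HTB22 (Cre13.g591200_4532) was at 2.93, 2.88 and 4.27 FPKM in wild-type cultures, 1.99, 2.27 and 1.89 in mutant cultures and 1.09, 1.81 and 1.44 in rescued cultures. The 3 strains did not overlap. The differences were -0.50 for mutant minus wild type (SE 0.14, adjusted p 0.0083, limma) and -0.83 for rescued strain minus wild type (SE 0.14, adjusted p 0.0014). Rescued strain minus mutant was -0.33 (adjusted p 0.066, limma), and -0.38 (adjusted p 0.031) with median ratios. With a pseudocount of 0.1 in place of 1 the difference between rescued strain and wild type was -1.17, which made HTB22 the only one of the 5 tested members called at that pseudocount.

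The partner HTA22 (Cre13.g591150_4532) varied widely between cultures of the wild type. It was at 2.95, 0.547 and 1.19 FPKM in wild-type cultures, 0.878, 0.329 and 0.559 in mutant cultures and 0.489, 0.496 and 0.547 in rescued cultures. It fell under the filter, and in the fit with no minimum mutant minus wild type was -0.59 (SE 0.28, adjusted p 0.101, limma). Rescued strain minus wild type was -0.65 (adjusted p 0.112, limma). Without wild-type replicate 2 these differences were -0.90 and -0.96. That library was picked as the lowest of its strain, so leaving it out widens both differences and tests nothing.

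Of the other H2B genes, HTB18 (Cre12.g506200_4532) was at 0.519, 0.530 and 0.721 FPKM in wild-type cultures, 0.935, 0.477 and 0.361 in mutant cultures and 0.355, 0.360 and 0.265 in rescued cultures. It was the only member of its cluster of 4 with a mean of at least 0.1 FPKM. HTA3 is the third HTA gene by mean, with 0.0651 FPKM in wild-type replicate 1 and 0 in all other libraries.

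The H3 and H4 genes with the highest levels, leaving out HTR2A and HTR2B, were the pairs on chromosome 16, all below the filter. HTR25 (Cre16.g650300_4532) was at 1.28, 1.31 and 1.30 FPKM in wild-type cultures, 0.458, 0.357 and 0.405 in mutant cultures and 0.638, 0.754 and 1.07 in rescued cultures. The strains did not overlap and the rescued strain stood between the others. In the fit with no minimum FPKM the mutant was lower than the wild type by a log2 difference of -0.71 (SE 0.08, adjusted p 1.0e-04, limma), and the rescued strain was higher than the mutant by 0.37 (SE 0.08, adjusted p 0.0053) and lower than the wild type (-0.34, adjusted p 0.014).

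HFO25 (Cre16.g650250_4532), directly beside HTR25, showed the same order. It was at 0.898, 1.03 and 1.37 FPKM in wild-type cultures, 0.441, 0.413 and 0.390 in mutant cultures and 0.819, 0.518 and 0.916 in rescued cultures. All mutant libraries lay below all others, with -0.56 for mutant minus wild type (SE 0.10, adjusted p 0.0013, limma) and 0.30 for rescued strain minus mutant (SE 0.10, adjusted p 0.034). The second result was lost on leaving out any mutant library or rescued replicates 1 or 3, with adjusted p-values from 0.075 to 0.119. The pseudocount of 1 understates changes at this level, and with 0.1 the differences of mutant minus wild type were -1.47 for HTR25 and -1.20 for HFO25. At that setting both were called.

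The pair HTR24 (Cre16.g649900_4532) and HFO24 (Cre16.g649950_4532) did not follow. HTR24 was at 0.295, 0.129 and 0.188 FPKM in wild-type cultures, 0.166, 0.155 and 0.234 in mutant cultures and 0.308, 0.156 and 0.215 in rescued cultures, with all ranges overlapping. HFO24 was at 0.691, 0.0881 and 0.672 FPKM in wild-type cultures, 0.396, 0.106 and 0.240 in mutant cultures and 0.0787, 0.0797 and 0.176 in rescued cultures. Wild-type replicate 2 was low in HFO24 as in HTA22. Mutant minus wild type in HFO24 was -0.23 (adjusted p 0.246, limma). It was -0.44 without that library, which was picked for its low value, so this is no test. HFO27 (Cre17.g708650_4532), the third HFO gene by mean, was above 0 in 4 of 9 libraries and at most at 0.213 FPKM.

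HTR2A (Cre09.g395500_4532) and HTR2B (Cre03.g162400_4532) match the symbol rule but no other histone gene adjoins them, and no source used here gives their product, so they are kept apart from the H3 genes. HTR2A was at 0.709, 0.491 and 0.458 FPKM in wild-type cultures, 0.899, 0.918 and 0.787 in mutant cultures and 0.657, 0.834 and 0.618 in rescued cultures. HTR2B was at 0.143, 0.229 and 0.126 FPKM in wild-type cultures, 0.554, 0.664 and 0.560 in mutant cultures and 0.283, 0.241 and 0.202 in rescued cultures. Both were higher in mutant cultures than in wild-type cultures, opposite to HTR25, with 0.27 for HTR2A (SE 0.08, adjusted p 0.013, limma) and 0.45 for HTR2B (SE 0.05, adjusted p 6.3e-05). The HTR2A difference turned to -0.06 (adjusted p 0.588) after quantile normalization.

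Linker histone genes had almost no signal. HON1 (Cre13.g567450_4532) was above 0 in 1 of 3 wild-type libraries, all 3 mutant libraries and 1 of 3 rescued libraries, at no more than 0.0669 FPKM. HON2 had 0.0593 FPKM in wild-type replicate 2 and was at 0 elsewhere. HON3, beside a core cluster on chromosome 6, was at 0 in all libraries.

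Faint signal of H2B genes was more frequent in mutant cultures. Of 26 HTB genes, 11 were above 0 in some mutant library, against 4 in wild-type cultures and 5 in rescued cultures. For HTA the numbers were 2, 3 and 2, for HTR 8, 8 and 9, and for HFO 5, 3 and 6. HTB9 (Cre06.g268250_4532) was at 0.268, 0.418 and 0.379 FPKM in mutant cultures, listed at 0 in wild-type cultures, and at 0.0768, 0 and 0 in rescued cultures. HTB10 (Cre06.g268100_4532) was at 0.137, 0.193 and 0.0729 FPKM and HTB16 (Cre12.g504700_4532) at 0.0859, 0.0804 and 0.0911 in mutant cultures, and both were listed at 0 in the other 6 libraries. The pattern of all mutant libraries above 0 and all wild-type libraries at 0 was thus shown by 3 of the 42 members with any signal (7.14%), and by 199 genes in all (1.23% of those with any signal). The reverse pattern was shown by no member and by 8 genes in all. The mutant libraries listed fewer genes at 0 throughout, and the part of depth in these faint values was not tested.

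Across the 5 members that passed the filter, none was called in any of the 3 comparisons at an adjusted p under 0.05 and a log2 difference of at least 1 (limma). Over all genes tested, 9.40% were called for mutant against wild type, 9.18% for rescued strain against mutant and 2.31% for rescued strain against wild type. At an unadjusted p under 0.05 there were 2, 2 and 4 of the 5. With no overlap between the libraries of 2 strains, 2, 3 and 3 of the 5 were lower, beside 43.5%, 29.3% and 26.3% of all genes. None was higher, beside 28.0%, 37.2% and 22.2%. By adjusted p alone, 2 members were lower in mutant cultures than in wild-type cultures, HTA21 and HTB22, where 40.5% of all genes were lower. HAV2 was lower in rescued cultures than in mutant cultures, where 25.0% of all genes were. Against the wild type 4 of 5 were lower in rescued cultures, all but HBV1, where 21.8% of all genes were. No member was higher by this measure, beside 25.8%, 33.1% and 18.5% of all genes in the 3 comparisons. The median difference over the 5 was -0.23 for mutant minus wild type beside -0.13 over all genes. After rescaling by median ratios these became -0.12 and -0.01. For rescued strain minus wild type the median over the 5 was -0.53 beside -0.03.

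In the fit with no minimum FPKM, 42 members could be tested, and 83 could not because they were at 0 in every library. None was called with a pseudocount of 1 (9, 9 and 10 at an unadjusted p under 0.05, limma), at which 7.09%, 6.87% and 1.65% of 16218 genes were called in the same order of comparisons. For mutant against wild type 5 members were higher and 4 lower by adjusted p alone, beside 31.2% and 29.1% of all genes. The 5 were HTR2A, HTR2B, HTB9, HTB10 and HTB16, and the 4 were HTA21, HTB22, HFO25 and HTR25. HTB10 and HTB16 were listed at 0 in wild-type and rescued cultures and entered this fit only through mutant cultures. Their part in the count is therefore no test. For rescued strain against mutant 4 were higher and 5 lower, beside 24.3% and 27.7% of all genes, and the 4 were HTR25, HFO25, HFO9 and HTR32. HFO9 and HTR32 were listed at 0 in wild-type and mutant cultures and did not exceed 0.171 FPKM in rescued cultures. They entered this fit only through rescued cultures, so their part in the 4 is no test. The same holds for HTB10 and HTB16 among the 5 lower, which entered only through mutant cultures. Against the wild type none was higher and 4 lower in rescued cultures, beside 16.9% and 15.3%. With a pseudocount of 0.1, a setting added after the data were seen, 3 members were called higher (HTB9, HTB10 and HTR2B) and 2 lower (HTR25 and HFO25) in mutant cultures, beside 15.3% and 4.73% of all genes. Without HTR2A and HTR2B this was 2 higher and 2 lower of 40. At that setting 3 were called lower for rescued strain against mutant (HTB9, HTB10 and HTR2B), beside 10.0% of all genes. HTB10 entered this fit only through mutant cultures, so its calls in both comparisons are no test. HTB22 was called lower for rescued strain against wild type, beside 2.61%. With no overlap of libraries, 5 of the 42 were higher and 4 lower in mutant than in wild-type cultures, beside 34.4% and 32.3% of all genes. For rescued strain against mutant 2 were higher and 8 lower, beside 28.4% and 32.8%. The 5 and the 8 again include HTB10 and HTB16, which had signal in mutant cultures only. Against the wild type 0 were higher and 5 lower in rescued cultures, beside 22.8% and 20.6%.

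**Figure D3:**
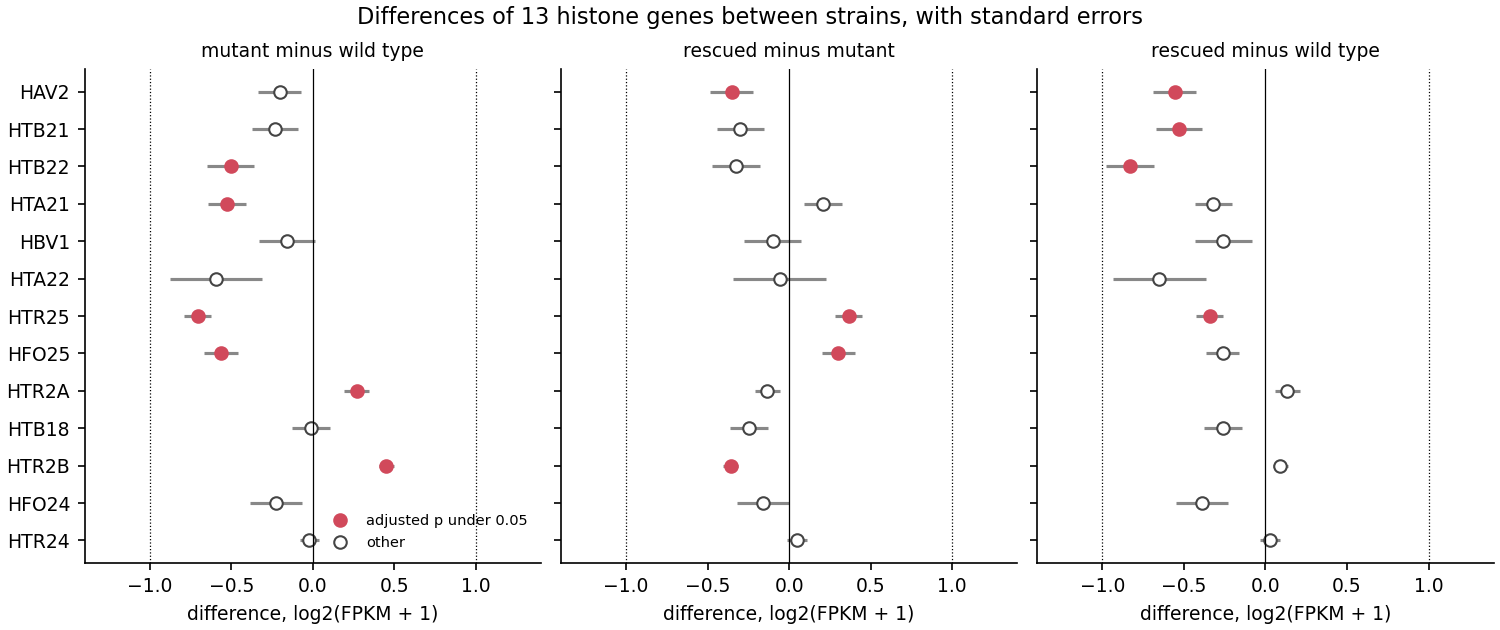
Differences between strains on the log2(FPKM + 1) scale, with standard errors, of 13 histone genes in the fit with no minimum FPKM. Filled points have an adjusted p under 0.05 and dotted lines mark a difference of 1. No gene passes a dotted line, HTR25 and HFO25 are lower in mutant cultures than in wild-type cultures and higher again in rescued cultures, and HTB22 is lowest in rescued cultures.

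Genes that copy DNA were examined beside the histone genes, since both serve S phase. All 39 genes matched to a list of replication genes had signal, none being at 0 in every library. The share of the list above 1 FPKM was 48.7% to 51.3% in wild-type cultures, 56.4% to 84.6% in mutant cultures and 38.5% to 41.0% in rescued cultures, while the share of histone genes was lower in mutant cultures than in wild-type cultures. In the fit with no minimum, 29 of the 39 were higher in mutant cultures than in wild-type cultures by adjusted p and none lower, beside 31.2% and 29.1% of all genes. In the rescued strain 38 of 39 were lower than in mutant cultures, beside 27.7%, and 12 were lower than in wild-type cultures and 1 higher, beside 15.3% and 16.9%. These comparisons share libraries, and the 29 and the 38 include MCM10, which was at 0 in all wild-type and rescued libraries. The median difference over the list was 0.48 for mutant minus wild type, beside 0.01 over all genes, and -0.66 for rescued strain minus mutant, beside -0.02.

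MCM2 to MCM7 form the helicase that opens DNA for copying. MCM2 was at 1.19, 1.25 and 1.11 FPKM in wild-type cultures, 3.60, 5.77 and 2.01 in mutant cultures and 0, 0.0517 and 0.0143 in rescued cultures, and the strains did not overlap. Its mean reached the filter of 1 FPKM only through mutant cultures, so no difference or p-value of mutant against wild type is given. MCM3 had a mean of 0.445 ± 0.0573 FPKM in wild-type cultures, 3.43 ± 2.18 in mutant cultures and 0.242 ± 0.0529 in rescued cultures (SD, n = 3). MCM6 had 2.10 ± 0.317 FPKM in wild-type cultures, 5.13 ± 2.47 in mutant cultures and 0.120 ± 0.0780 in rescued cultures, and was called lower in rescued cultures than in both other strains. All 6 MCM genes were called lower in rescued cultures than in mutant cultures, but MCM2, MCM3 and MCM4 passed the filter only through mutant cultures.

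RIR1 and RIR2 encode subunits of ribonucleotide reductase, which makes DNA precursors. RIR2 was at 0.0854, 0.0654 and 0.0712 FPKM in wild-type cultures, 2.76, 7.82 and 1.22 in mutant cultures and 0.0177, 0 and 0 in rescued cultures, with every mutant library above all others. RIR1 was at 6.61 ± 0.594, 13.3 ± 6.17 and 2.28 ± 0.177 FPKM in wild-type, mutant and rescued cultures (SD, n = 3). PCN1, the sliding clamp PCNA, was at 24.4 ± 2.93, 29.1 ± 7.65 and 15.3 ± 1.47 FPKM, and RIR2L, another reductase subunit gene, at 8.47 ± 1.52, 7.31 ± 1.20 and 4.32 ± 0.500, in the same order of strains. Neither was called with the main settings, and PCN1 was called lower in rescued cultures than in mutant cultures after quantile normalization. Like MCM2, MCM3 and MCM4, RIR2 passed the filter of 1 FPKM only through its level in mutant cultures. No difference or p-value of mutant against wild type is given for these genes, but they are part of the list counts and medians.

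The mutant cultures differed among themselves in these genes. Replicate 2 was highest and replicate 3 lowest in MCM2, MCM3, MCM4, MCM6, RIR1 and RIR2. HAV2 took the same order, at 63.7, 50.6 and 42.9 FPKM in replicates 2, 1 and 3. HBV1, HTA21, HTB22 and HTR2A took that order as well. HTB9 and HTR2B were highest in replicate 2 but lowest in replicate 1, and HTR24 was highest in replicate 3. HTB21, HTA22, HFO24, HFO25, HTR25 and HTB18 were highest in replicate 1, and HTR25 was at its lowest in replicate 2. The sum of the 4 core classes ran from 9.15 to 11.1 FPKM over the mutant cultures.

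Cyclins, their kinases and mitotic genes gave 43 matched genes, all with signal. For mutant against wild type 23 were higher and 7 lower by adjusted p in the fit with no minimum, beside 31.2% and 29.1% of all genes. In rescued cultures 28 were lower and 1 higher than in mutant cultures, beside 27.7% and 24.3%. CYCB1, the B-type cyclin of mitosis, was at 0.0398, 0.0856 and 0 FPKM in wild-type cultures, 1.53, 4.28 and 0.994 in mutant cultures and 0.0483, 0.0428 and 0.0270 in rescued cultures. CDKB1, the kinase that acts with it, was at 0.164, 0.0627 and 0 FPKM in wild-type cultures, 2.07, 4.59 and 0.846 in mutant cultures and 0, 0.0378 and 0 in rescued cultures. Both were called in that fit, with 1.52 (SE 0.29, adjusted p 0.0016, limma) and 1.56 (SE 0.31, adjusted p 0.0023) for mutant minus wild type. Among the 25 listed genes that passed the filter none was called in that comparison, and by adjusted p 7 were higher and 7 lower, beside 25.8% and 40.5% of all genes. CYCAB1 and CYCD4 were called lower in rescued cultures than in mutant cultures (-2.04 and -1.06). CYCAB1, CYCD2, CKS1 and CDKG1 were called lower in rescued cultures than in wild-type cultures, with differences from -1.10 to -1.02. CYCAB1 passed the filter only through its level in mutant cultures. The calls of CKS1 and CDKG1 were lost under both rescalings, and that of CYCD2 under quantile normalization. None of these calls remained with a pseudocount of 5, and against the wild type there were 2 on leaving out wild-type replicate 2, wild-type replicate 3 or rescued replicate 1.

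Histone chaperones and chromatin enzymes gave 18 genes matched by symbol alone, of which 16 passed the filter. Their products were not checked, so a gene that only shares a symbol, as FAS1 or FAS2 might, could be counted. By adjusted p, 5 of these were higher and 7 lower in mutant than in wild-type cultures, beside 25.8% and 40.5% of all genes. SPT6, a chaperone of transcribed chromatin, was at 1.67, 2.15 and 1.81 FPKM in wild-type cultures, 5.58, 5.11 and 6.29 in mutant cultures and 4.57, 3.09 and 3.51 in rescued cultures, and was called higher in mutant cultures than in wild-type cultures (1.21, SE 0.12, adjusted p 1.7e-05, limma). HDT1, a histone deacetylase gene of the plant type, was at 46.5 ± 3.29 FPKM in wild-type cultures, 21.3 ± 0.799 in mutant cultures and 47.7 ± 2.63 in rescued cultures (SD, n = 3), and was called lower in mutant cultures (-1.09, adjusted p 2.4e-06). That call was lost under both rescalings. HDT1 was also called higher in rescued cultures than in mutant cultures (1.12, adjusted p 9.6e-07, limma). This second call was kept with median ratios and lost under quantile normalization. NAP1, a carrier of H2A and H2B, was at 4.84, 3.68 and 6.81 FPKM in wild-type cultures, 5.39, 9.88 and 10.1 in mutant cultures and 1.35, 1.81 and 1.52 in rescued cultures. It was called lower in rescued cultures than in mutant cultures (-1.84, adjusted p 6.4e-05) and than in wild-type cultures (-1.23, adjusted p 0.0023), the latter call being lost with a pseudocount of 5. ASF1, a carrier of H3 and H4, was lower in rescued cultures than in wild-type cultures by less than a call needs (-0.65, adjusted p 0.0027).

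**Figure D4:**
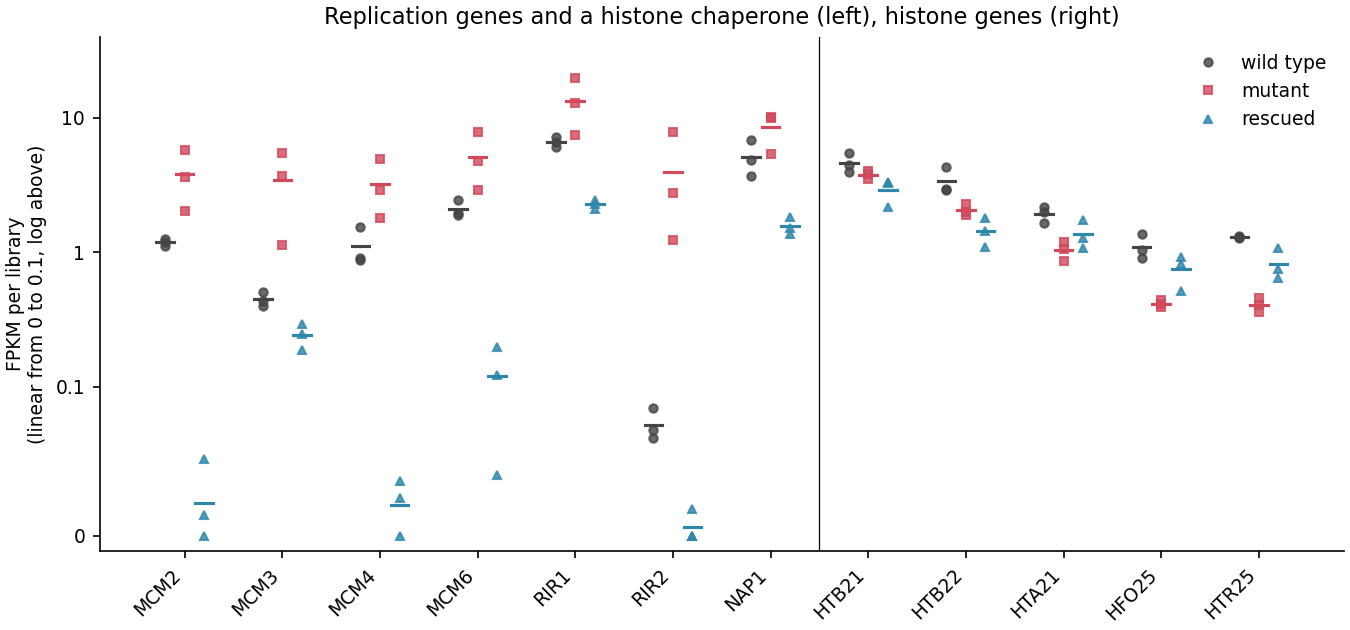
FPKM in each library (linear from 0 to 0.1, logarithmic above) of 6 replication genes and the chaperone NAP1, left of the line, and of 5 histone genes, right of it. Points are the 3 cultures of a strain and short bars their mean. All mutant libraries lie above those of the other strains in the 6 replication genes. These 6 were taken from the called genes of the list by the size of their difference between mutant and wild type, so their separation follows from that choice. In NAP1 the mutant and wild type overlap. In HTB22, HTA21, HFO25 and HTR25 all mutant libraries lie below the wild type, as they do in 32.3% of all genes with any signal.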

How the data were processed

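PolyA RNA of 9 Chlamydomonas reinhardtii cultures was sequenced as paired reads of 125 bp, per the labels' protocols. The authors deposited FPKM per library and 1 FPKM value per strain. The submitters' processing notes name STAR 2.7.10b and Cuffdiff 2.0.2, and the deposited identifiers carry annotation version 6.1. The genome build, the handling of reads that match several genes, and read numbers were not given in the sources used. Groups and replicate numbers came from the sample titles, and 0 columns were unmatched.

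The main test took the genes that averaged 1 FPKM or more across the 9 libraries. Values of log2(FPKM + 1) from all libraries entered 1 linear model with a mean per strain, moderated with a trend in limma 3.58.1 (R 4.3.3), and p-values were adjusted after Benjamini and Hochberg over every gene in the fit. A call needed both an adjusted p under 0.05 and a log2 difference of 1 or more in size. Since few members reached 1 FPKM, the same model was also fitted with no minimum, leaving out genes at 0 in every library. On simulated data for mutant against wild type with 11360 genes, 100% of 200 genes changed by a log2 of 2 were recovered.

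Among the 14 members with a mean of at least 0.1 FPKM, the authors' strain value lay within 1% of the replicate mean for 10 in wild-type cultures, 13 in mutant cultures and 12 in rescued cultures, and replicate values were used throughout. Neighbours were read from the gene order of the reference table of assembly version 5.5, to which 125 of 125 members matched. Genes named in full were the linker and variant histones, any member called in the fit with the minimum, and the 3 members of highest mean in each core class. List genes were named if called, 6 per list at most, taken by the size of the difference between mutant and wild type. PCN1, RIR2L, CDKB1 and CYCB1 were added. All lists were matched by symbol alone, and the products of their genes were not checked. Further genes were named after their values were seen. Members and lists were chosen with earlier results of these data known.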

Additional observations from a re-analysis of the deposited data

How the results depend on the processing

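Of the histone genes tested, 0 were called in each comparison. Over all genes 9.40% were called for mutant against wild type. For rescued strain against mutant it was 9.18%, and for rescued strain against wild type 2.31%. Without a minimum log2 difference 2, 1 and 4 histone genes were called in the same order of comparisons. All were lower, where 40.5%, 25.0% and 21.8% of all genes were lower. With no minimum FPKM and a pseudocount of 0.1, chosen after seeing the data, there were 5, 3 and 1 histone genes called. The 5 and the 3 include HTB10, which entered that fit only through mutant cultures. With that pseudocount alone there was 1 for rescued strain against wild type. The S phase list had 3 calls among 22 genes tested for mutant against wild type. They were MCM2, MCM3 and RIR2, which passed the filter only through mutant cultures, so these calls are no test. The list had 5 with a pseudocount of 0.1, with no minimum FPKM or with median ratios, and 0 with a pseudocount of 5 or a minimum of 5 FPKM. With no minimum FPKM 7.09% of all genes were called, and with median ratios 675 of 11360 higher and 337 lower. Without a minimum difference the list had 15, all higher, where 25.8% of all genes were higher. On leaving out 1 library the list had 2 to 6 calls, the most without mutant replicate 3. Its 9 calls for rescued strain against mutant became 1 with a pseudocount of 5, 2 with a minimum of 5 FPKM and 22 without a minimum difference, and its 6 for rescued strain against wild type became 0, 2 and 12. The mitosis list went from 0 calls for mutant against wild type to 2 with a pseudocount of 0.1, 3 with no minimum FPKM, 1 with median ratios, 14 without a minimum difference and 0 to 1 on leaving out 1 library (1 without the second wild-type library or without the first or the third mutant library). The chaperone list went from 2 to 0 with a pseudocount of 5, to 1 with a minimum of 5 FPKM or either rescaling, and to 12 without a minimum difference. With no minimum FPKM and a pseudocount of 0.1 the S phase list of 39 had 21, 24 and 10 calls in the 3 comparisons. The mitosis list of 43 had 17, 17 and 5, and the chaperone list of 18 had 2, 3 and 2. At that setting 2487 of 16218 genes were called higher and 767 lower for mutant against wild type. For rescued strain against mutant it was 878 and 1622, and for rescued strain against wild type 562 and 424. The cause of the changes between settings was not tested.

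The share of members above 0.1 FPKM was 10.9% for the wild type, 12.5% for the mutant and 11.7% for the rescued strain, and above 5 FPKM it was 1.07%, 0.800% and 0.800%, so the order of the strains at 1 FPKM was not kept at 0.1. The mean summed histone FPKM was 77.4, 65.1 and 51.1, and without HAV2 17.4, 12.7 and 10.8. With libraries scaled to a sum of 1000000 the family had 74.0, 106 and 53.2, which turned the order of mutant and wild type.

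Signs turned for differences that were small or not past the threshold, other than HTR2A. After quantile normalization HAV2 was 0.31 and HTR2A -0.056 for mutant minus wild type, HBV1 0.10, HTA22 0.13 and HTR2A 0.076 for rescued strain minus mutant, and HTR24 -0.035 for rescued strain minus wild type. After median ratios HTB18 was 0.039 and HTR24 0.0027 for mutant minus wild type. On leaving out 1 library, HBV1 ran from -0.23 to 0.054 and HTA22 from -0.18 to 0.069 for rescued strain minus mutant, HTB18 from -0.16 to 0.091 and HTR24 from -0.066 to 0.033 for mutant minus wild type, and HTR24 from -0.021 to 0.081 for rescued strain minus wild type. Of the other results for single genes, 593 kept direction and side of the threshold, 27 lost it and 21 gained it.

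Same-numbered cultures deviated together with correlations from -0.13 to 0.16, so the numbers were not shown to pair the cultures. With the replicate number as a block the histone genes had 0 calls in each comparison. By adjusted p (limma), HAV2 for rescued strain against mutant (0.054) and HTA21 for rescued strain against wild type (0.069) were then above 0.05, and HFO24 for rescued strain against wild type under it (-0.39, adjusted p 0.042). Read numbers were not stated, which leaves the precision of the faint values unknown.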
